A study of Mus musculus with 2 samples.

Results

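A set of 10 interferon-stimulated antiviral genes was followed in tumour endothelial cells (ECs) with and without a STING agonist. They are Ifit1, Ifit2, Ifit3, Rsad2, Cmpk2, Isg15, Usp18, Oasl2, Oas3 and Ifi44, which are 10 of the 17139 genes listed for both libraries. They were chosen by name with earlier results of these data known, and the study itself names Isg15 and Oasl2 among genes that differed between these libraries. Counts of them beside all genes are therefore a description, not independent support. The ECs came from subcutaneous Lewis lung carcinoma (LLC) tumours, which grow from an implanted mouse carcinoma line, in adult C57BL/6 mice, C57BL/6 J in the study's methods. Tumours were injected with PBS or with cGAMP, live CD31+ CD45- cells were sorted from 1 mouse per condition, and single-cell RNA sequencing gave 1 library of 2517 ECs after PBS and 1 library of 1340 ECs after cGAMP. The study's text gives more than one sampling time for these libraries, all within about a day of injection. Pecam1, which encodes CD31, had a unique molecular identifier (UMI) in 99.7% of PBS cells and 99.6% of cGAMP cells.

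The injected cGAMP is an agonist of STING, and active STING drives production of type I interferon. Interferon signals through its receptor to transcription factors that bind a short element in the promoters of antiviral genes. The proteins of those genes bind foreign RNA, block its translation, make chain-terminating nucleotides or are attached to other proteins, and together they form the antiviral state that most cell types, ECs included, can enter.

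The element that these factors bind is built from repeats of a core shared by interferon regulatory factors, and so the promoters of the 10 genes were read for that core. In GRCm38, the Ifit genes stand side by side on one strand, with Ifit2 at chr19:34550694-34576419, Ifit3 at chr19:34583531-34588731 and Ifit1 at chr19:34640871-34650009, a span of 99.3 kb. Rsad2 (chr12:26442746-26456452, minus strand) and Cmpk2 (chr12:26469204-26479837, plus strand) are transcribed away from each other from starts 12.8 kb apart. Isg15 lies at chr4:156199424-156200818 on the minus strand, Usp18 at chr6:121245906-121270917 on the plus strand, and Ifi44 at chr3:151730922-151749960 on the minus strand. Oasl2 (chr5:114896936-114912234, plus strand) and Oas3 (chr5:120753098-120777661, minus strand) share a chromosome but are 5881 kb apart. The core AANNGAAA was searched on both strands, overlapping matches included, in RefSeq promoters of GRCm38.p6 that run from 250 bases before to 50 bases after a gene's start. It was chosen after a longer form had been searched. Of the 10 genes, 9 matched the promoter table, and 6 of these 9 held at least 2 copies, beside 5.34% of all 32851 promoters. At least 1 copy is common, in 23.9% of all promoters. The stretches are shown because they are the regulatory feature on which these genes could be compared. All lie before the start site, each reads 5′ to 3′ on its gene's strand, and capitals mark the core or its reverse complement TTTCNNTT.
Isg15: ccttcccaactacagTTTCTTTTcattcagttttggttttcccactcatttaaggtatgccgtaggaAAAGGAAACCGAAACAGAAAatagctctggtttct
Ifit1: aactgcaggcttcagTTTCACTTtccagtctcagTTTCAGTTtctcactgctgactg
Ifit3: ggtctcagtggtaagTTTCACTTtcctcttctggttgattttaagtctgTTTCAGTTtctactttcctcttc
Rsad2: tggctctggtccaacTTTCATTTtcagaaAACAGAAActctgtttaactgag
Oas3: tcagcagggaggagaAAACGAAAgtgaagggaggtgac
These are chr4:156200860-156200961, chr19:34640770-34640826, chr19:34583358-34583429, chr12:26456536-26456587 and chr5:120777710-120777747. Isg15 held 4 copies, 3 of them overlapping, the last ending 56 bases before the start, and Ifit1, Ifit3, Rsad2 and Oas3 held 2 each, 1 of those of Oas3 after the start. Ifi44 held 3. No copy was found in the windows of Ifit2, Cmpk2 and Oasl2, which says only that these letters are not in them. A match is a description of the sequence, not a site shown to be bound.

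All 10 genes were at a higher level after cGAMP, and 7 of the 10 were at least 2-fold higher, beside 1.82% of the 9509 genes that reached 5 CPM in one library or both. CPM is a gene's UMIs summed over the ECs of a library and scaled to 1000000 UMIs of that library, whose total was 92081146 UMIs after PBS and 63366746 after cGAMP. Ratios are given as log2 of the cGAMP level over the PBS level, and their median was 1.34 for the 10 genes and -0.075 for all such genes, of which 40.4% were higher. Summed, the 10 genes made up 604 CPM after PBS and 1601 CPM after cGAMP, a log2 ratio of 1.41, or 1.14 when Isg15 was left out. With 1 library from 1 mouse in each condition, no spread between mice could be measured and no test was made. The ratios carry 95% counting intervals, which say nothing of how another pair of mice would differ.

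The 3 Ifit genes encode tetratricopeptide-repeat proteins that bind viral RNA and slow translation. Ifit1, which recognises incompletely capped RNA, was at 44.5 CPM after PBS and 114 CPM after cGAMP, a log2 ratio of 1.36 (1.30 to 1.41). Ifit3 was at 39.2 CPM and 144 CPM, a log2 ratio of 1.87 (1.82 to 1.93). Ifit2 differed less, at 24.3 CPM and 32.4 CPM, a log2 ratio of 0.41 (0.33 to 0.50). Part of the Ifit3 count is uncertain, because 47.0% of the 60-base windows of its longest transcript, and 11.4% of its last 500, also occur in the neighbouring copy Ifit3b. Ifit3b itself was at 16.2 CPM and 54.3 CPM. For the other 9 genes the share over the whole transcript was at most 6.32%, in Ifit1.

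Rsad2 encodes viperin, a radical SAM enzyme that makes a chain-terminating nucleotide, and its neighbour Cmpk2 encodes a mitochondrial nucleotide kinase. Rsad2 was at 105 CPM after PBS and 172 CPM after cGAMP, a log2 ratio of 0.71 (0.67 to 0.75). Cmpk2 stood at 25.3 CPM and 27.7 CPM, a log2 ratio of 0.13 (0.041 to 0.22). Ifit2, Rsad2 and Cmpk2 were thus the members below a 2-fold difference, and Cmpk2 went the other way, to -0.12, when the cells of the proliferative cluster were left out.

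Isg15, a ubiquitin-like protein that interferon causes to be attached to many others, was at 247 CPM after PBS and 814 CPM after cGAMP, a log2 ratio of 1.72 (1.70 to 1.75). It held 40.8% of the UMIs of the 10 genes after PBS and 50.9% after cGAMP. Usp18, the protease that removes ISG15 and also restrains the interferon receptor, was at 20.7 CPM and 52.0 CPM, a log2 ratio of 1.33 (1.25 to 1.41). The modifier and the gene that opposes it were therefore both more than 2-fold higher in the same library.

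Oas3 makes oligoadenylates that switch on the antiviral ribonuclease RNase L, and Oasl2 is a relative in the same family. Oas3 was scarce, with 77 UMIs or 0.836 CPM after PBS and 481 UMIs or 7.59 CPM after cGAMP, and its log2 ratio of 3.18 (2.83 to 3.55) was the highest of the 10. Oasl2 was at 37.5 CPM and 109 CPM, a log2 ratio of 1.53 (1.48 to 1.59). Ifi44, an interferon-induced cytoplasmic protein, was at 60.3 CPM and 128 CPM, a log2 ratio of 1.09 (1.04 to 1.14).

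**Figure D1:**
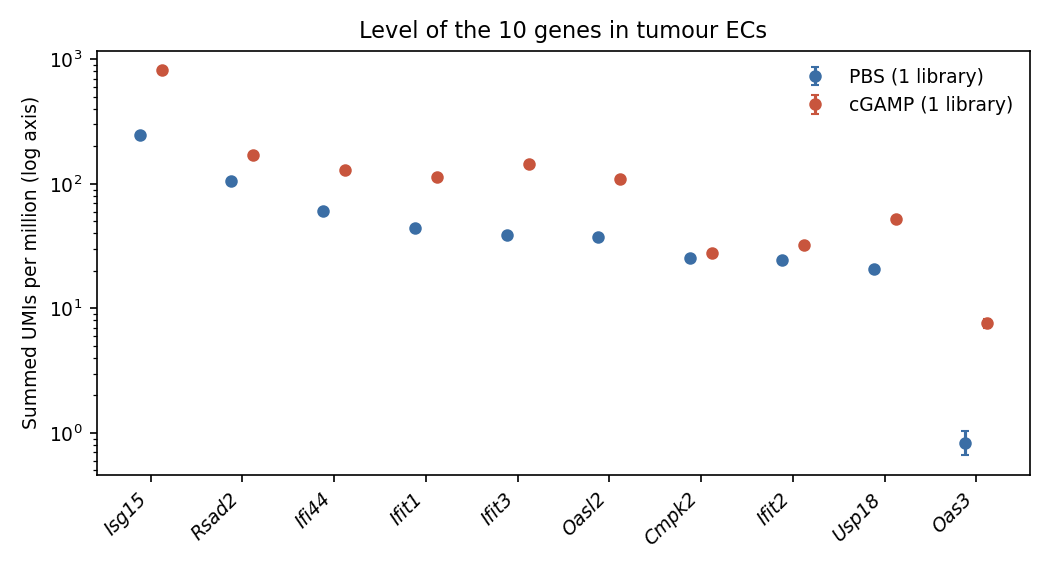
Level of each of the 10 genes in CPM on a log axis, with 1 point for each of the 2 libraries and bars for the exact Poisson 95% interval, which is hidden by most points. Every cGAMP point lies above its PBS point, from Cmpk2, where they nearly touch at 25.3 and 27.7, to Oas3, at 0.836 and 7.59.

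More cells carried the transcripts after cGAMP. UMIs per cell differed, with a median of 29780 after PBS and 41178 after cGAMP, so each cell was thinned at random to 5000 UMIs, leaving out 70 PBS cells and 13 cGAMP cells with fewer. After PBS, 40.7% of 2447 cells (38.8% to 42.7%, exact binomial interval) had a UMI of none of the 10 genes, and after cGAMP 6.63% of 1327 cells (5.35% to 8.11%) had none. The median cell had 1 of the 10 genes after PBS and 3 after cGAMP, and without thinning 3 and 7. Cells with at least 5 of the 10 made up 5.35% (4.50% to 6.32%) and 21.5% (19.3% to 23.8%). At the far end, at least 8 of the 10 genes were found in 42 of the 2447 PBS cells, or 1.72%, and 38 of the 1327 cGAMP cells, or 2.86%. All of these intervals cover counting error only.

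**Figure D2:**
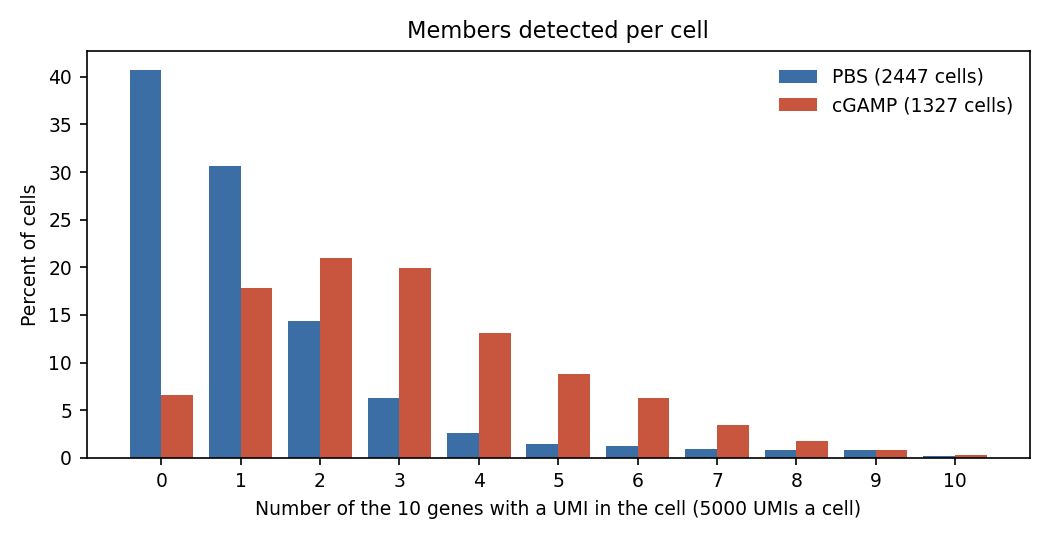
Percent of cells, for each library, by how many of the 10 genes had a UMI when every cell was thinned to 5000 UMIs. The PBS bars fall from 40.7% at 0 genes with a thin tail up to 10, and the cGAMP bars peak at 2 and 3 genes.

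Gene by gene, the share of thinned cells with a UMI was 1.91 to 7.07 times as high after cGAMP. Isg15 went from 41.7% of cells to 84.4%, Ifi44 from 20.9% to 40.8% and Oasl2 from 14.5% to 36.9%. Ifit3 went from 7.60% to 33.5%, Ifit1 from 9.15% to 29.6%, and Usp18 from 7.81% to 19.6%. At this thinned depth most ECs had a UMI of Isg15 after cGAMP, and a minority had one of each of the others. Without thinning, most cGAMP cells also had a UMI of Ifi44 (86.1%), Oasl2 (85.7%), Ifit3 (72.9%), Ifit1 (68.7%), Rsad2 (68.5%) and Usp18 (66.6%). Cmpk2 (43.9%), Ifit2 (37.2%) and Oas3 (16.9%) were still found in a minority. For Ifit1, Ifit2, Ifit3, Rsad2 and Cmpk2 the share of cells differed more than the summed level did. Rsad2 was found in 11.5% and 32.0% of cells, Ifit2 in 5.44% and 11.5%, and Cmpk2 in 5.76% and 11%, although the summed level of Cmpk2 was only 1.10 times as high. Oas3 was found in 0.490% and 3.47% of cells. For comparison, Ptprc, the leucocyte gene for CD45 that sorted ECs should lack, was found in 0.123% and 0.377% of cells. The myeloid gene Lyz2 was found in 2.29% and 6.71%. The shares of Oas3 lie between those of Ptprc and Lyz2, and whether free RNA contributed to them was not tested.

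The mean number of UMIs per cell with a UMI was lower after cGAMP for several of the genes. This mean covers only cells with a UMI, which were a larger share of cells after cGAMP. It therefore does not compare like cells, and how many of all genes had a lower mean was not counted. Rsad2 averaged 4.43 UMIs per cell with a UMI after PBS and 2.63 after cGAMP. Cmpk2 averaged 2.21 and 1.29, Ifit2 2.27 and 1.48, and Ifit1 2.73 and 1.76. Isg15 went the other way, from 3.04 to 4.64. The rest were close in the 2 libraries, apart from Ifit3 at 2.57 and 2.07. Of these, Usp18 had 1.44 and 1.29 and Oas3 1.08 and 1.04, both slightly lower. Oasl2 had 1.30 and 1.43 and Ifi44 1.39 and 1.53.

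**Figure D3:**
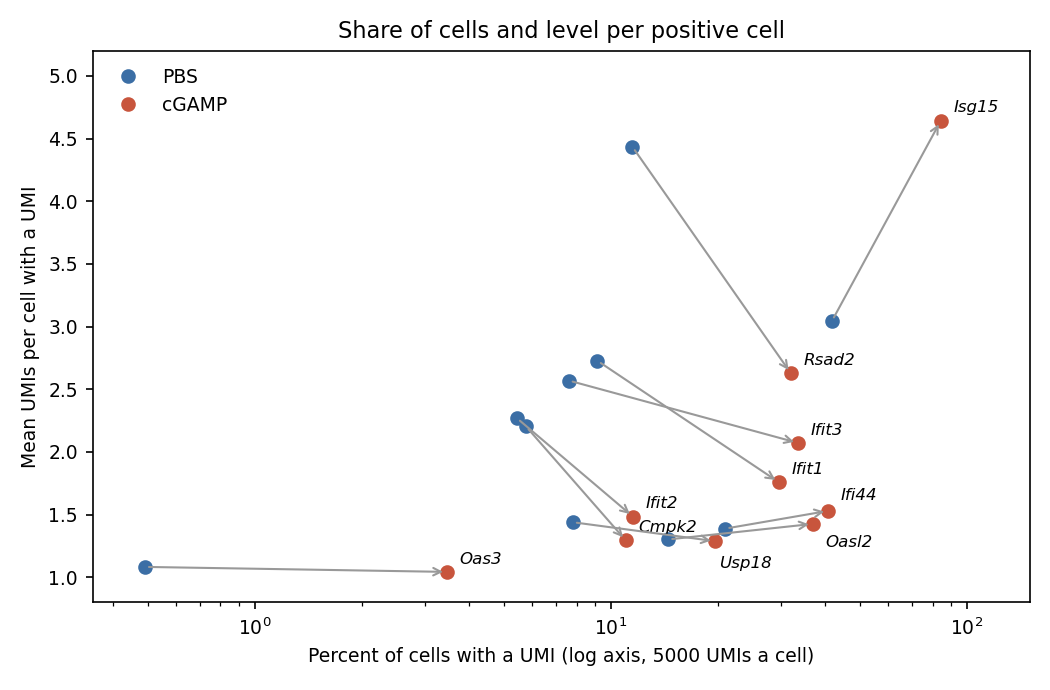
Each arrow runs from PBS to cGAMP for one of the 10 genes, with the percent of thinned cells with a UMI on a log x axis and the mean UMIs per cell with a UMI on the y axis. All arrows point right, and those of Rsad2, Cmpk2, Ifit2, Ifit1 and Ifit3 also point down, while that of Isg15 points up, from 3.04 to 4.64.

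A small set of PBS cells carried most of the UMIs of several of these genes. The 10% of thinned cells with the most held 68.7% of the summed UMIs of the 10 genes after PBS and 37.6% after cGAMP. On the unthinned scale of UMIs of the 10 genes per 10000 UMIs of the cell, the median was 1.66 after PBS and 9.61 after cGAMP, the 95th percentile 23.2 and 47.4, and the highest cell 292 and 231. The top PBS cell was therefore above every cGAMP cell, while the median PBS cell was far lower. The Fano factor, the variance over cells divided by the mean, was 29.3 for the sum after PBS and 11.2 after cGAMP. Of single genes, Rsad2 had a Fano factor of 18.4 after PBS and 7.98 after cGAMP, Isg15 had 7.64 after PBS, and Ifit1 had 7.13 and 2.27. The median over all 5353 genes of similar mean, 0.1 to 1.5 thinned UMIs per cell, was 1.05 after PBS, and 6 of the 9 members in that range lay above the 99th percentile of 3.23. After cGAMP 1 of 8 did, Rsad2. Guanylate-binding protein and immunity-related GTPase genes, a second group of interferon targets, had a median Fano factor of 1.78 after PBS over 9 genes in the same range, beside 4.82 for the 9 members. The groups overlapped, since Gbp2 had 4.64 and Iigp1 lay above the 99th percentile too, while Oasl2 had 1.39, Ifi44 1.53 and Usp18 2.28. After cGAMP the medians were close, 1.69 for that group and 2.03 for the members.

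To see what this small set held, the UMIs of each gene were divided between cells with at least 4 of the other 9 genes and cells with fewer. This division is a range cut from the same kind of measurement after its values were seen, not a cell type. The cGAMP library has more cells past it, so the classes hold different cells in the 2 libraries, and levels within a class were not compared between them. For Rsad2 it put 163 PBS cells (6.66%) in the upper class, with 56 at exactly 4 and 147 just below, and these held 81.3% of the Rsad2 UMIs of the library. After cGAMP 387 cells (29.2%) held 66.2%. Of Cmpk2, 7.36% of PBS cells held 76.2% of the UMIs, and of Ifit2, 7.60% of PBS cells held 82.5%. The upper class held less of the PBS UMIs of Isg15 (43.5%), Oasl2 (33.4%) and Ifi44 (26.3%), and over 50% for each of the other genes. Every cell was thinned to the same depth, so the share of cells in a class is also its share of all UMIs. The class is drawn from genes that vary together across cells, so a raised share in it follows in part from how it was drawn. The shares for other genes were not counted.

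Within a library the counts of the 10 genes were weakly to moderately correlated across cells. Over thinned cells, Spearman's rho was above 0 for all 45 pairs in both libraries, with a median of 0.276 after PBS (2447 cells) and 0.210 after cGAMP (1327 cells). The highest pair was Ifit2 and Ifit3 after PBS, at 0.479, and Ifit3 and Isg15 after cGAMP, at 0.467. Pairs with the scarce Oas3 were lowest, at 0.0995 with Ifit1 after PBS and 0.0485 with Oasl2 after cGAMP. Over all pairs of genes with a mean of 0.1 to 1.5 thinned UMIs, the median was 0.00083 after PBS and 0.00079 after cGAMP, with 51.4% and 51.1% above 0, and the 36 and 28 pairs of members in that range had medians of 0.299 and 0.219. The cells of a library share its depth and handling, and these values are given as a description. The summed level correlated with UMIs per cell at 0.044 and 0.104 and with the mitochondrial share at -0.029 and -0.255.

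Outside the 10, the genes whose counts followed their sum most closely across cells were ranked by the lower of the rho values in the 2 libraries, over 7266 genes with a UMI in at least 5% of cells in both. Irf7, a transcription factor that amplifies interferon production, came first, at 0.348 after PBS and 0.404 after cGAMP. Bst2 (tetherin, which holds virions at the membrane) and Ifi203 followed, at 0.339 and 0.462, and at 0.349 and 0.315. Zbp1, a nucleic acid sensor, and Ifitm3, which blocks viral entry, came next, ahead of the antigen presentation gene B2m. Iigp1, Xaf1, the chemokine gene Cxcl9 and the immunoproteasome gene Psmb8 completed the first 10, Psmb8 at 0.255 and 0.346. The median of this measure over the genes ranked was -0.020.

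The wider pathway was counted from fixed lists of its parts, also chosen with earlier results of these data known, among those that reached 5 CPM. Of 32 such genes, 14 were at least 2-fold higher, beside the same 1.82% of all genes. Of the 32, 29 were higher at all, beside 40.4% of all genes, and 3 were lower. Some of these differences were small, and the lowest ratio among the 29 was 0.048. All 3 of the other OAS genes counted were at least 2-fold higher, with log2 ratios of 2.12 for Oas2, 1.59 for Oas1a and 1.45 for Oasl1, the lowest. Of the 4 genes that attach ISG15, 1 was, namely the conjugating enzyme Ube2l6 at 1.34, followed by Herc6 at 0.85, and Trim25 was lowest at 0.23. Among 3 RNA sensors of the RIG-I family, Dhx58 stood at 1.42, Ifih1 at 0.96 and Ddx58 at 0.41. Of 12 other antiviral effectors 7 were at least 2-fold higher, led by Ifi27l2a at 3.18 and Zbp1 at 2.58, with Eif2ak2, the RNA-activated kinase that stops translation, lowest at 0.34.

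Most signalling genes themselves stayed below a 2-fold difference. Of 9 counted, Irf7 was the 1 past 2-fold, from 82.7 CPM to 651 CPM, a log2 ratio of 2.98. The receptor gene Ifnar1 was lowest, from 56.0 CPM to 34.1 CPM, a log2 ratio of -0.72, and Tyk2 and Irf3 also had intervals below 0, at -0.45 and -0.17. Of the interferon genes on the list, Ifne had 11 and 7 UMIs and the others were not analysed here. In the comparison list of guanylate-binding and immunity-related GTPase genes, 10 of 12 were at least 2-fold higher, with a median log2 ratio of 1.49, led by Tgtp1 at 2.17 and Irgm1 at 2.15, with Gbp9 lowest at 0.74.

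ECs were then divided into clusters with Seurat, with the 10 genes and the listed interferon genes kept out of the genes used for clustering. Named from marker genes, 2 clusters were tip-like (led by Gal and by Ankrd1), 1 stalk-like (Ackr1 and Selp), 2 arterial-like (Gja5 and Slc6a6) and 1 proliferative (Ube2c). The remaining clusters, led by Ung and by Igfbp5, were left unnamed. After PBS the summed level of the 10 genes ranged from 155 CPM in the Igfbp5 cluster to 912 CPM in the Gja5 arterial-like cluster, with 879 CPM in the Ankrd1 tip-like cluster, 800.0 CPM in the Gal tip-like cluster, 365 CPM in the proliferative cluster, 346 CPM in the Ung cluster, 343 CPM in the stalk-like cluster and 244 CPM in the Slc6a6 cluster. After cGAMP all clusters were higher, from 814 CPM in the Igfbp5 cluster to 3205 CPM in the Ankrd1 cluster of 22 cells, with 1938 CPM in the stalk-like cluster and 1666 CPM in the Gja5 cluster. The log2 ratio of the sum was lowest in the Gja5 cluster, at 0.87 (0.84 to 0.90), and 2.50 (2.44 to 2.55) in the stalk-like cluster. It did not follow the PBS level throughout, since the Ankrd1 cluster, nearly as high as the Gja5 cluster after PBS, had a ratio of 1.87. That PBS level rested in part on a few of the cluster's 48 cells. The highest cell for a gene held 53.1% of the cluster's Rsad2 UMIs, 31.8% for Isg15 and 15% for Oasl2. Of its thinned PBS cells, 54.3% had none of the 10 genes.

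In the stalk-like cluster, of 348 PBS cells and 329 cGAMP cells, all 10 genes were at least 2-fold higher, beside 2.69% of genes in that cluster. Ifit3 went from 21.5 CPM to 206 CPM there, Isg15 from 138 CPM to 978 CPM, and Cmpk2 from 6.23 CPM to 23.0 CPM. Some of these PBS levels rested on few cells or UMIs. The highest PBS cell for a gene held 50.1% of the cluster's Rsad2 UMIs, 42.1% for Ifit2 and 34.6% for Cmpk2, but 10.8% for Isg15 and 4.19% for Ifi44. Oas3 had 3 PBS UMIs there. In the proliferative cluster 9 of the 10 genes were, beside 1.65% of its genes. In the Gal tip-like cluster 6 were, beside 1.78%, and Ifit2 and Cmpk2 had intervals that included 0. In the Gja5 cluster 4 were, Oas3, Ifit3, Isg15 and Oasl2, beside 2.07%. The Ung cluster had 8 such genes, beside 1.97%. The small clusters had 9 (Slc6a6, beside 5.88%), 8 (Ankrd1, beside 10.1%) and 7 (Igfbp5, beside 5.78%), with 1 to 3 members in them lacking a ratio for want of a PBS UMI.

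Cells with at least 5 of the 10 genes were 7.62% of Gja5 cells after PBS (42 cells) and 7.02% of Gal tip-like cells (51 cells), against 2.99% of stalk-like cells (10 cells). After cGAMP they were 16.8%, 25.6% and 29.3%. The Gja5 and Gal clusters held 551 and 727 of all 2447 thinned PBS cells, and 42 and 51 of the 131 such cells. The Ankrd1 cluster had the highest shares, on few cells. They were 8.70% of 46 cells after PBS (4 cells, 2.42% to 20.8%) and 50% of 22 cells after cGAMP (11 cells, 28.2% to 71.8%). The interval after PBS was 5.55% to 10.2% for the Gja5 cluster and 1.44% to 5.42% for the stalk-like cluster.

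Rsad2 and Cmpk2 were lower after cGAMP in the Gja5 cluster. Rsad2 was at 134 CPM after PBS and 119 CPM after cGAMP, a log2 ratio of -0.17 (-0.27 to -0.066), and Cmpk2 at 34.0 CPM and 24.6 CPM, a log2 ratio of -0.47 (-0.69 to -0.25). These values rested in part on a few cells. The highest PBS cell held 274 UMIs of Rsad2, 12.5% of those in the cluster, and without the 10 cells with the highest summed level of the members in each library, chosen by that level, the ratios were 0.75 (0.62 to 0.88) for Rsad2 and 0.25 (-0.027 to 0.52) for Cmpk2. The share of cells with a UMI of Rsad2 was higher after cGAMP, 14.0% and 29.8%, and that of Cmpk2 was 7.44% and 8.82%. Cluster borders also mattered, since assigning cells by marker ranks gave ratios of 0.73 for Rsad2 and 0.33 for Cmpk2, and a highest over lowest state in PBS of 0.85 on the log2 scale in place of 2.56.

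**Figure D4:**
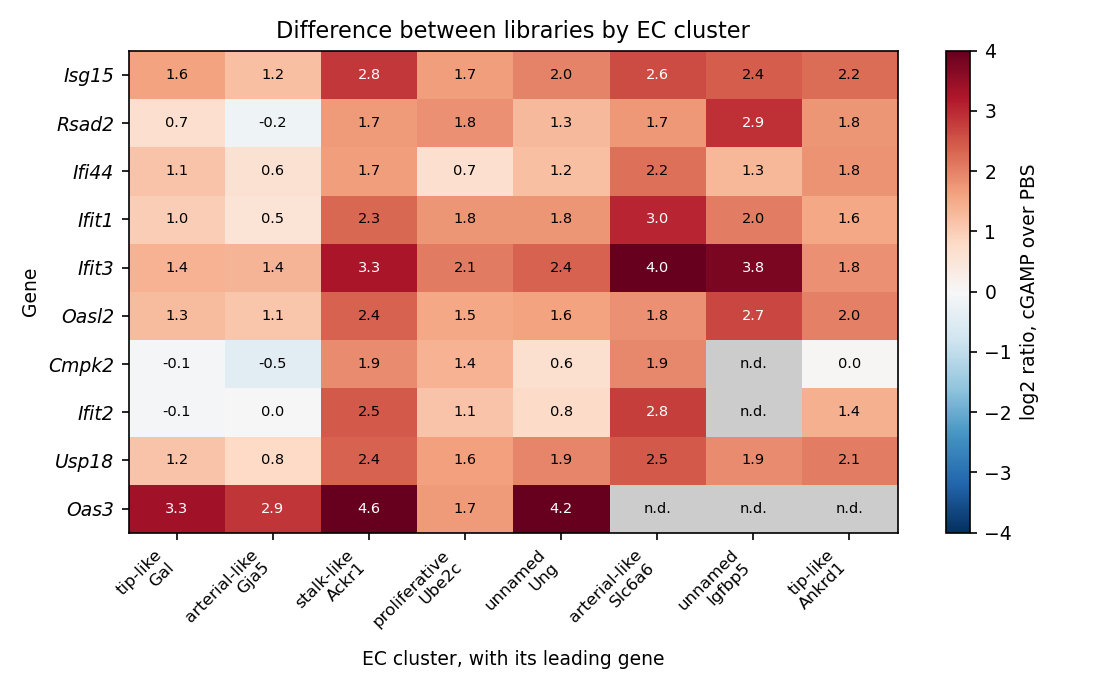
The log2 ratio of cGAMP over PBS for each of the 10 genes (rows) in each EC cluster (columns, with the leading gene), from blue below 0 to red above. The stalk-like column is red throughout, the Gja5 arterial-like column is palest, with Rsad2 at -0.17, Cmpk2 at -0.47 and Ifit2 at -0.031, and Ifit2 and Cmpk2 are also just below 0 in the Gal column, at -0.066 and -0.068. The label n.d. marks a cluster with no UMI after PBS.

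Markers of other cells also differed between the libraries. The 8 macrophage or monocyte markers summed to 47.5 CPM after PBS and 99.1 CPM after cGAMP. These were mostly Cd14, which was also among the 10 leading genes of the stalk-like EC cluster. The 4 neutrophil markers summed to 0.652 CPM and 17.0 CPM, with 3 of the 4 having a UMI after PBS and all 4 after cGAMP. Of these, S100a8 had 57.9% of its cGAMP UMIs in 1 cell, which held 245. The 3 T or NK cell markers listed, of 6, summed to 0.228 CPM and 0.205 CPM. Other lists were lower after cGAMP, with 102 CPM and 74.2 CPM for 6 general leucocyte markers, mostly Lcp1, 99.4 CPM and 70.8 CPM for erythrocyte markers, 17.8 CPM and 11 CPM for fibroblast or pericyte markers, and 2.15 CPM and 0.395 CPM for carcinoma or epithelial markers. The lymphatic markers summed to 60.5 CPM and 82.7 CPM, and dendritic cell markers to 0.304 CPM and 0.110 CPM. Cells with a UMI of Ptprc, S100a8, S100a9 or Lyz2 had 747 CPM of the 10 genes after PBS and 1705 CPM after cGAMP, and cells without had 565 CPM and 1463 CPM. Cells with such a UMI were 392 of 2517 after PBS and 639 of 1340 after cGAMP, so leaving them out cut the libraries unequally. In the cells without, 7 of the 10 genes were still at least 2-fold higher, with a median log2 ratio of 1.25. The mitochondrial share was also lower after cGAMP, with a median of 2.87% of UMIs against 4.49%, and in cells at or below 5% the median log2 ratio of the 10 genes was 1.31.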

How the data were processed

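The authors aligned reads to mm10 with Cell Ranger 3.0.0, per the labels, and with Seurat 3.1.1 kept cells that passed filters on genes and mitochondrial share and removed clusters without Pecam1. The values they deposited are natural log values of 1 plus a gene's UMIs per 10000 UMIs of the cell. Undoing this gave whole UMIs for 100% of values above 0, within 0.01. The sources differ on the version of the kit. A gene in fewer than 3 cells of a library is listed at 0 there (no gene is listed in 1 or 2 cells), so that 0 is not a measured absence. This holds for Ifi44l, with 126 UMIs in 101 PBS cells and listed at 0 after cGAMP. The libraries share 1 cell barcode. No doublet caller was run.

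The 10 genes and all lists were chosen with earlier results of these data known. Named genes were all 10 members, the 2 highest and the lowest of each pathway list, and the 10 genes most like the members, with a few others named after their values were seen. A gene that this rule names is not reported here by name. UMIs were summed per library in CPM with exact Poisson intervals, ratios had exact conditional intervals and shares Clopper-Pearson intervals (95%), all for counting error only. With 1 mouse per condition no test was possible. Clustering used Seurat 5.3.0 in R 4.3.3 (2204 variable genes, 30 components, resolution 0.5, integration anchors). Of the variable genes first selected, the 280 with a 2-fold difference between libraries and 16 more interferon genes were left out. A cluster took the name of the list with the most raised markers, at least 3, unless another list had more markers among its 10 leading genes, as in the Igfbp5 cluster (14 raised stalk-like markers, none leading, and 1 arterial-like marker leading). Other steps used Python 3.11.15, numpy 2.4.6 and scipy 1.17.1, and were tested on simulated data. Coordinates are from GENCODE for GRCm38, which is the assembly of mm10.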

Additional observations from a re-analysis of the deposited data

Results flagged for a closer look

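Rsad2 and Cmpk2 moved in opposite directions in different EC clusters. In the Gja5 arterial-like cluster the log2 ratio of cGAMP over PBS was -0.17 for Rsad2 and -0.47 for Cmpk2, while in the stalk-like cluster it was 1.71 and 1.88. The highest PBS cell of the stalk-like cluster held 50.1% of its Rsad2 UMIs, and the highest for Cmpk2 held 34.6%. With 1 library per condition the difference between clusters was not tested, and a counting interval was the measure of direction. In both libraries a large part of these UMIs in the Gja5 cluster lay in cells with at least 4 of the other members, 81.9% after PBS and 45.3% after cGAMP for Rsad2, and 82.7% and 54.2% for Cmpk2.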

How the results depend on the processing

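The count of 7 genes at least 2-fold higher was the same under all 7 alternatives run. The median log2 ratio of 1.34 stayed within its counting interval with cells of at most 5% mitochondrial share, with weighted states and with a minimum of 20 CPM. It was 1.19 as a mean over cells, 1.43 with median-of-ratios size factors (which shift every gene by 0.088), 1.25 without cells with a leucocyte UMI, 1.14 in thinned cells and 1.24 without the proliferative cluster. Of 70 values for single genes, 32 stayed within their intervals, 37 moved beyond them in the same direction and 1 reversed, Cmpk2 at -0.12 without the proliferative cluster. The cause was not tested. The difference in median members per cell, 2, was 3 when thinned to 10000 UMIs, 4 unthinned and 1 when 2 UMIs were required.

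The highest over lowest cluster after PBS, 2.56 on the log2 scale, was 1.28 at resolution 0.3, 1.99 without integration and 0.85 by marker ranks, and stayed within its interval at resolution 1.2, with only the 280 genes of a 2-fold difference left out of the variable genes, and, in 2 alternatives chosen after seeing the data, without the 100 genes most like the members and with another linear algebra kernel. The highest cluster was the Gal tip-like one in 3 of these 7. In the Gja5 cluster, alternatives chosen after seeing the data gave values above 0 for both genes. Rsad2 was 0.68 and Cmpk2 0.62 with only the 2-fold genes left out, 0.73 and 0.33 by marker ranks, 0.58 and 0.61 without the genes most like the members, and 0.75 and 0.25 without the 10 highest cells, where the Cmpk2 interval includes 0 (-0.027 to 0.52). The ratio was below 0 for both at resolutions 0.3 and 1.2, without integration and with the other kernel, although the interval of Rsad2 at resolution 0.3 includes 0 (-0.18 to 0.015). No paired analysis was possible because each condition has 1 library. Leaving out a library was not possible for the same reason. Depth limits Oas3 most, with 77 UMIs after PBS.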
